A study of Mesocricetus auratus with 14 samples.

Results

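This section describes the nuclear-encoded genes of the mitochondrial respiratory chain in liver RNA of Syrian golden hamsters (Mesocricetus auratus) on a high-fat diet, with and without the compound DC371739. Members were taken by name: each gene of the authors' table of expression values whose symbol begins with Nduf, Uqcr, Atp5 or Cox4 to Cox8, or is Sdha, Sdhb, Sdhc, Sdhd, Cyc1 or Cycs. The rule took 63 of the 10023 genes with a symbol. Of these, 37 had a name of complex I; 29 were subunits of that complex and 8, Ndufaf1 to Ndufaf8, were assembly factors, which build the complex but are not part of it, so the set is not made of subunits alone. Complex II gave 3 members, complex III 7, complex IV 8 with Ndufa4 counted there, and complex V 8. Sdhc, Cycs, Ndufs1, Ndufv1, Cox6c and the tissue isoforms Cox4i2, Cox6a1, Cox6a2, Cox7a1 and Ndufa4l2 were not analysed here. All 63 members passed the filter on low counts, and the lowest count of any member in any library was 27.

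The samples were whole liver, 7 labelled control and 7 with DC371739, a compound that the labels name by code alone. All 14 shared the high-fat diet. The sources used here give no dose, route, duration, strain, age or sex, and do not say what the control animals received. The labels name 2 library kits, TruSeq and NEBNext, for every sample alike, and do not say that each sample came from its own animal. The p-values therefore measure the spread between these samples, which may be technical.

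The respiratory chain passes electrons from NADH through complex I, or from succinate through complex II, to coenzyme Q, then through complex III, cytochrome c and complex IV to oxygen. The proton gradient this builds drives ATP synthase, complex V. A few hydrophobic core subunits of complexes I, III, IV and V are encoded in mitochondrial DNA, while the genes described here lie in the nucleus and their proteins are imported; complex II is wholly nuclear-encoded and is also an enzyme of the citric acid cycle. Hepatocytes are rich in mitochondria and use this chain to power glucose and urea synthesis.

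Libraries held 13672589 to 23948628 counts. Control replicates 6 and 7 and DC371739 replicate 7 stood apart, with at least 22152239 counts each and 12.6% to 14.4% of them on the 37 features of the mitochondrial sequence. The other 11 libraries held at most 16710097 counts and 7.23% to 9.33%. Within these 11, the mitochondrial share was 7.23% to 9.33% in control and 7.71% to 8.63% in DC371739 libraries, so the groups overlapped. All 12 hepatocyte markers checked were present, and their summed level was 152070 to 192992 CPM (counts scaled to a common library total) in control and 159859 to 180854 CPM in DC371739 libraries. Because 3 libraries stood apart, counts of members are given from 3 fits of the quasi-likelihood test of edgeR: over all 14 libraries, over all 14 with a term for library class (the 3 deeper libraries against the other 11), and over the 11 shallower libraries alone, 5 of them control and 6 DC371739. The last 2 are called the later fits. A gene is called where its p-value, adjusted over all genes tested by the method of Benjamini and Hochberg, lies under 0.05. A log2 fold change is DC371739 against control throughout, and a level is in CPM unless said otherwise.

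Over all 14 libraries none of the 63 members was called; the background was 1.85% of all 12166 genes tested in either direction, 1.24% higher and 0.608% lower. At an unadjusted p under 0.05, 29 members were lower and none higher, against 9.6% of all genes lower and 10.8% higher. DESeq2 called 3 members, all lower (Ndufa2, Ndufaf8 and Ndufb9), against 6.33% of all genes in either direction and 2.46% lower. Limma with sample weights called 38 lower and Sdha higher, against 22.5% in either direction and 10.9% lower. Log2 fold changes were negative for 59 of the 63, with a median of -0.24, against 53.4% of all genes and a median of -0.02. None of the 4 positive members, Sdha, Uqcrc1 and Atp5f1a among them, was called.

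With the library class term 9 members fell and 1, Sdha, rose; the background was 12.3% of all genes in either direction, 6.7% lower and 5.62% higher. Over the 11 shallower libraries 23 members fell and 1, again Sdha, rose, against 21.5% of 12249 genes in either direction, 10.5% lower and 11% higher. All 9 members that fell with the class term were among those 23. Log2 fold changes were negative for 57 and 56 members in the 2 fits, against 50.8% and 49.3% of all genes, with medians of -0.22 and -0.26. No member had groups that did not overlap over all 14 libraries (0.403% of all genes lower and 0.296% higher). Over the shallower libraries Ndufa2 and Ndufb10 lay wholly below control and Sdha wholly above (5.27% of all genes lower and 4.07% higher). The number of members called depended on single libraries. Over all 14 it went from 0 to 2, 1 and 10 without control replicate 4, control replicate 7 and DC371739 replicate 7. All genes called went from 225 to 226, 542 and 1069 in the same fits, of 12220 to 12241 tested. In the shallower set it went from 24 to 7, 15, 39 and 13 without control replicates 2, 3, 4 and 5, and to 14 and 13 without DC371739 replicates 3 and 6. All genes called there went from 2635 to 1747, 1889, 2913, 1624, 2011 and 1907 in the same order, of 12172 to 12355 tested. The calls of all genes thus moved as well. 7 members were called in each of the 12 fits over shallower libraries: Ndufa2, Ndufa13, Ndufb10, Uqcr11 and the assembly factors Ndufaf2 and Ndufaf8, which fell, and Sdha, which rose. Without control replicate 2 these 7 were the only members called, while 843 of 12355 genes fell and 904 rose. The share of all genes called in each of the 12 fits was not formed, so the 7 are not set apart from a background. The later fits reuse libraries of the first and are no independent support for it.

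**Figure D1:**
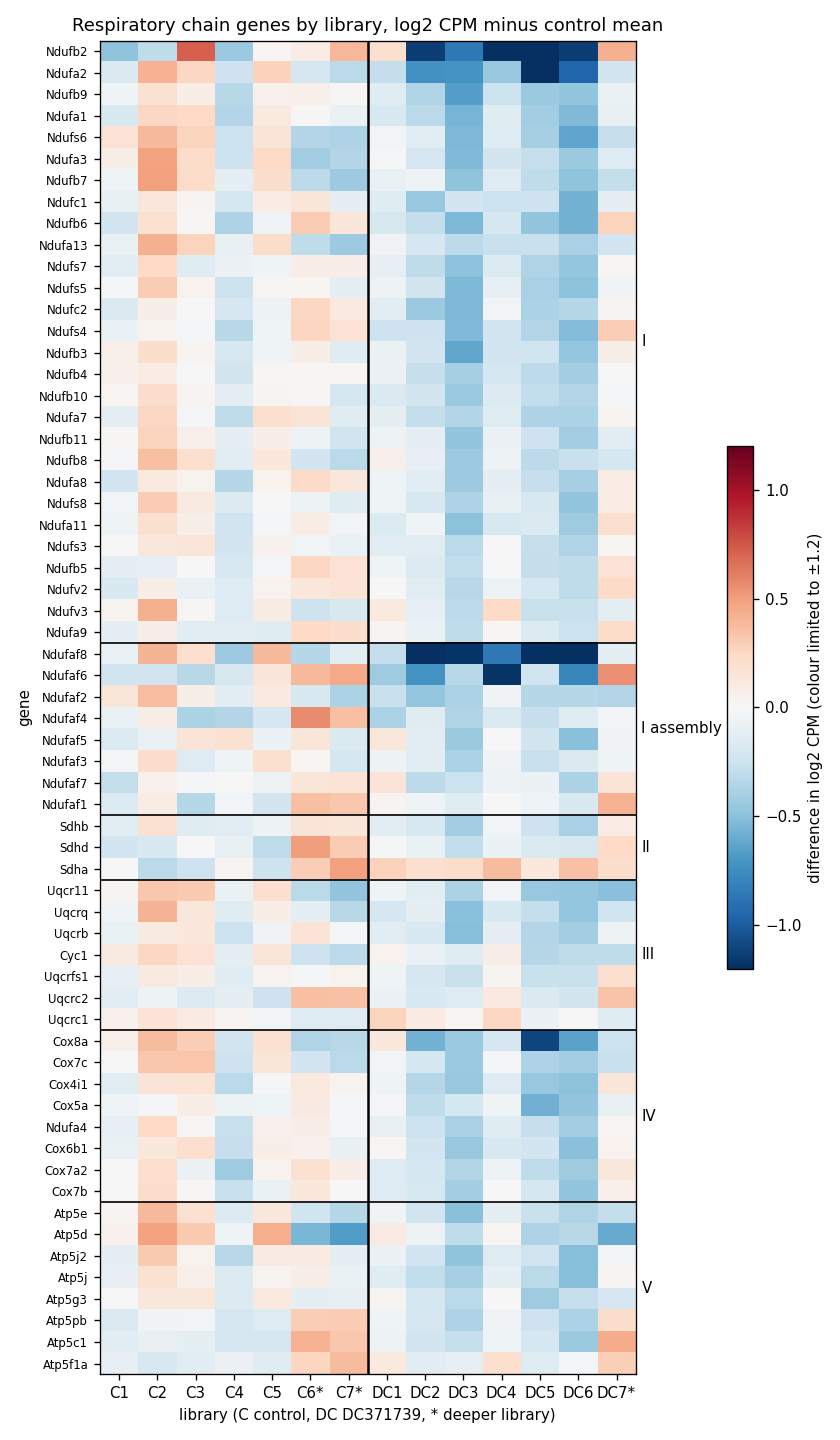
Each row is 1 of 62 of the genes and each column 1 library (C1 to C7 control, DC1 to DC7 DC371739, deeper libraries starred); colour gives the log2 CPM of the gene minus its mean over the 7 control libraries, in log2 units. Blue fills most rows in DC371739 replicates 2, 3, 5 and 6 and also in control replicate 4, while the row of Sdha is red across the DC371739 libraries.

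The libraries of each group were not alike. Of the 63 members, 59, 62, 61 and 61 lay below their control median in DC371739 replicates 2, 3, 5 and 6, 44 and 47 did in replicates 1 and 4, and 30 did in the deeper replicate 7. For all 12166 genes tested that share was 49.99% to 51.1% in the DC371739 libraries. Among controls, 53 of 63 lay below it in replicate 4, which was thus as low as some treated libraries, and only 8 in replicate 2. The summed level of the 63 genes was 6836 to 8361 CPM in control and 6150 to 7916 CPM in DC371739 libraries, and the ranges overlapped. In bulk tissue, fewer cells of a type and less RNA per cell cannot be told apart.

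Levels between genes are compared per length, as the authors' FPKM averaged over 14 libraries. Uqcrq of complex III was the most abundant member at 991 FPKM, followed by Cox7c at 552 and Ndufa4 at 500.2 FPKM in complex IV. Subunits of complex I were lower and had a median of 128 FPKM over 29 genes, against 254, 197, 274 and 334 FPKM for complexes II, III, IV and V. The assembly factors had a median of 19.0 FPKM, from 4.65 FPKM in Ndufaf6 to 41.8 FPKM in Ndufaf2. Ndufs4, the lowest subunit, was at 40.1 FPKM, just under Ndufaf2. In control, Uqcrq went from 326 to 543 CPM with a median of 398 CPM.

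In complex I, the NADH dehydrogenase, 28 of 29 subunits had a negative log2 fold change in each of the 3 fits. None was called over all 14 libraries, 4 fell with the class term and 14 fell over the shallower libraries. Of all genes tested, 0.608%, 6.7% and 10.5% fell in the same 3 fits. The same shares stand beside the counts of each complex below. In the small sets, 1 call is not set apart from these shares. The core subunits, which carry the flavin, the iron-sulfur clusters and the quinone site, and the supernumerary ones, which surround them, were separated after the values were seen. All 24 supernumerary subunits were negative over the shallower libraries, with a median of -0.30, and 13 fell. The 5 core subunits had a median of -0.22, and Ndufs7 alone fell.

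Ndufa2, a supernumerary subunit of the matrix arm, had the smallest p of all members over all 14 libraries and with the class term; in the shallower set that of Sdha was smaller. Its gene (ENSMAUG00000015843) spans 22812583 to 22814991 on the plus strand of scaffold KB708144.1 in the coordinates of the count table, of a genome build that no source used here names. Its level was 33.3 CPM at the lowest, 36.9 at the median and 55.5 at the highest in control, and 18.1, 25.3 and 35.4 CPM in DC371739 libraries. Every DC371739 library was under the median of control, though the deeper one, at 35.4 CPM, lay above the control libraries 7 and 4, at 33.3 and 35.0 CPM. Over the shallower libraries the groups did not overlap, at 35.0 to 55.5 CPM against 18.1 to 34.0 CPM. The log2 fold change was -0.64 (SE 0.16, adjusted p = 0.0512 by edgeR) over all 14, -0.64 (adjusted p = 0.0228) with the class term and -0.82 (SE 0.16, adjusted p = 0.00567) over the shallower libraries. In the authors' deposited edgeR table Ndufa2 had an adjusted p of 0.0494 and was the only one of the 63 under 0.05. Of all 10023 genes there, 210 were under 0.05, so 1 member is not set apart from that share. The deposited values come from the same libraries and are no independent support.

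Ndufb9, of the membrane arm, was the most abundant subunit of the complex at 295 FPKM. It stood at 138, 180.4 and 197 CPM (lowest, median, highest) in control and at 110.02, 135.1 and 164 CPM in DC371739 libraries. Its log2 fold change was -0.34 over all 14 (SE 0.10, adjusted p = 0.0756) and -0.37 over the shallower libraries (adjusted p = 0.0195), where the call was lost without control replicate 2 (0.0559). Ndufb10, another membrane-arm subunit, was at 94.5 to 118 CPM in the shallower control and 74.7 to 90.9 CPM in the shallower DC371739 libraries, which did not overlap. Its log2 fold change there was -0.31 (SE 0.07, adjusted p = 0.0115), while over all 14 it was -0.24 (adjusted p = 0.13) and the ranges overlapped; with the class term it was -0.23 (0.0559). Ndufa13, also known as GRIM-19, was at 59.3 to 84.6 CPM in the shallower controls and 48.0 to 61.4 CPM in the shallower DC371739 libraries. It fell there by 0.40 on the log2 scale (SE 0.10, adjusted p = 0.0115) but did not pass over all 14 (-0.27, 0.221) or with the class term (-0.29, 0.0562). In the deeper control libraries it was at 51.1 and 46.7 CPM, inside or below the DC371739 range.

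The same held for several small subunits. Ndufa3 (27.0 and 28.2 CPM), Ndufb7 (71.9 and 66.0 CPM) and Ndufs6 (43.6 and 43.0 CPM) stood lower in the deeper control libraries than in any shallower control library. In the shallower set they fell by 0.44, 0.41 and 0.45 on the log2 scale (adjusted p = 0.0182, 0.0204 and 0.0205). Over all 14 their adjusted p was 0.25, 0.235 and 0.196. Without control replicate 2 none of the 3 passed (0.0522, 0.0579 and 0.0592). Ndufc1, at 31.1 and 26.1 CPM in the deeper controls, and Ndufb4, at 59.8 and 59.7 CPM, were there inside or next to the range of the other controls. They fell with the class term (-0.27 and -0.22, adjusted p = 0.0421 and 0.0475) and in the shallower set (-0.30 and -0.26, adjusted p = 0.0321 and 0.0271). Without 1 library those 2 calls went up to 0.0805 and 0.0666: Ndufc1 was lost without control replicates 2, 3 or 5 or DC371739 replicates 2 or 6, and Ndufb4 without control replicates 1, 2 or 5 or DC371739 replicates 3, 5 or 6. Ndufb2 had a log2 fold change of -0.69 and did not pass (SE 0.34, adjusted p = 0.262; 0.198 with the class term and 0.131 in the shallower set): it ranged from 29.4 to 67.7 CPM among controls and from 9.56 to 55.5 CPM among DC371739 libraries.

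Among the 8 assembly factors of complex I, none was called over all 14 libraries, and Ndufaf2 and Ndufaf8 fell in the later fits. Ndufaf8, which works with Ndufaf5, had the most negative fold change of all 63 members. It was at 9.35, 11.96 and 16.7 CPM (lowest, median, highest) in control and at 2.89, 5.57 and 11.6 CPM in DC371739 libraries. DC371739 replicates 1 and 7, at 10.3 and 11.6 CPM, lay in the control range, and the other 5 DC371739 libraries were below every control. The log2 fold change was -0.997 over all 14 (SE 0.28, adjusted p = 0.0635), -0.99 with the class term (adjusted p = 0.039) and -1.31 over the shallower libraries (SE 0.29, adjusted p = 0.00971). Its gene (ENSMAUG00000020884) spans 1725404 to 1726570 on the minus strand of KB708147.1. Ndufaf2, a factor of late assembly, was at 11.2 to 16.0 CPM in the shallower control and 8.95 to 11.9 CPM in the shallower DC371739 libraries, and fell there by 0.41 (SE 0.11, adjusted p = 0.014). Ndufaf6 had log2 fold changes of -0.38 and -0.41 over all 14 and the shallower libraries and did not pass (adjusted p = 0.37 and 0.122); 51 of its 951 exon bases overlap a gene on the opposite strand. Ndufaf1 was at 36.1 ± 6.9 CPM in control and 35.9 ± 5.45 CPM with DC371739 (SD, n = 7 each).

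**Figure D2:**
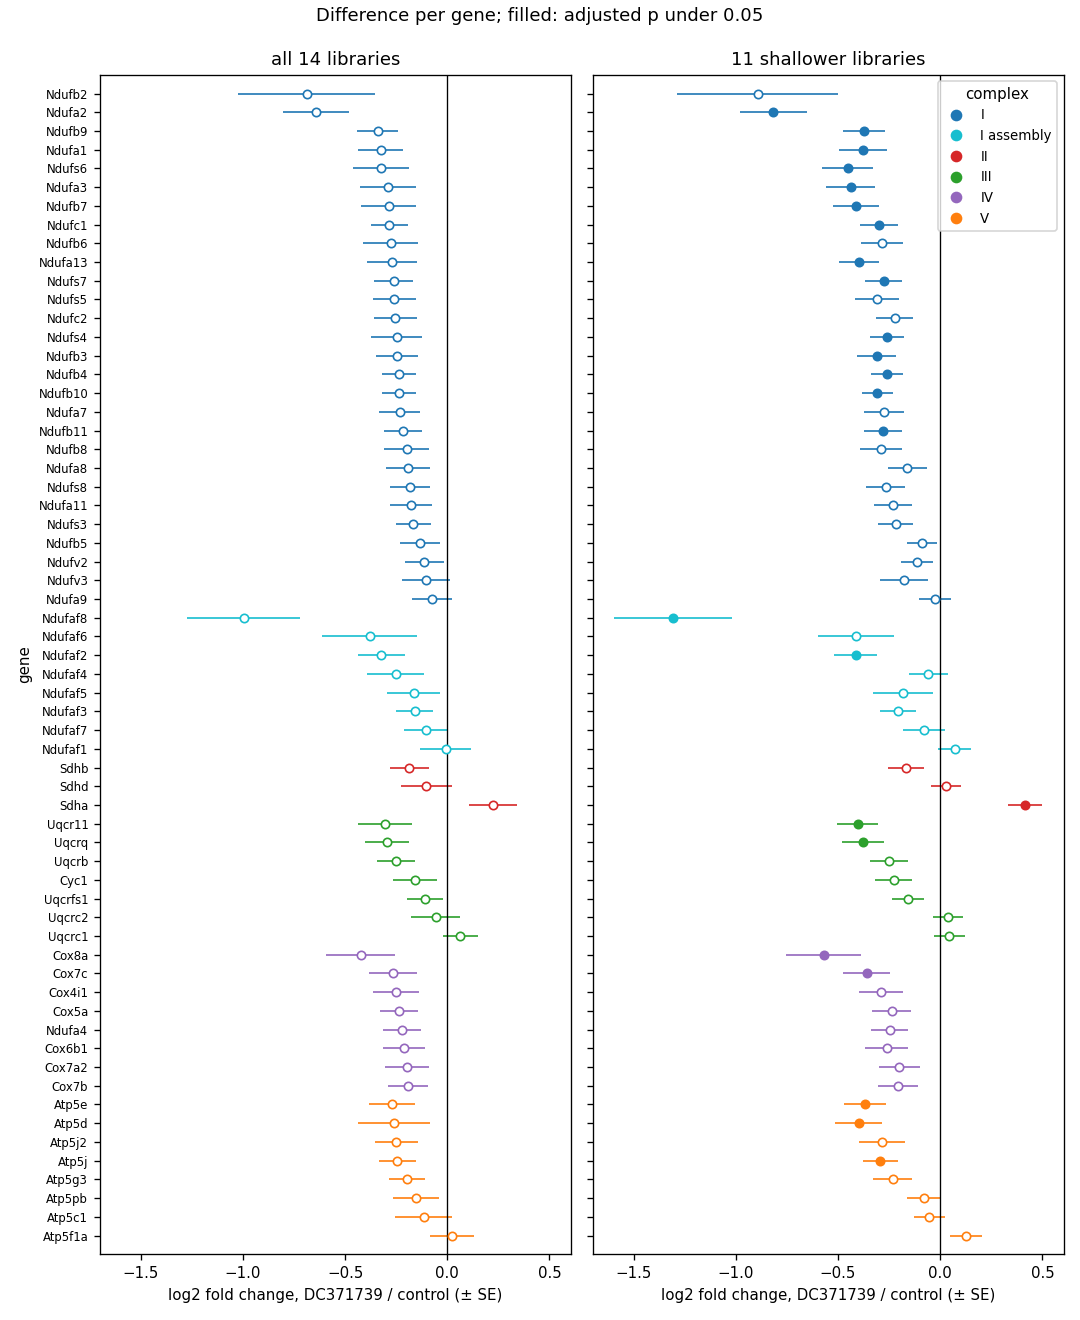
Log2 fold change (DC371739 against control) of 62 of the genes with its SE, by complex, over all 14 libraries (left) and over the 11 shallower libraries (right); filled points have an adjusted p under 0.05. No point is filled on the left; on the right 23 points left of 0 and that of Sdha, right of 0, are filled.

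In complex II, succinate dehydrogenase, the flavoprotein Sdha had a positive log2 fold change in each of the 3 fits. Over all 14 libraries, complexes I, III and V also held 1 positive subunit each. Sdha, which carries the flavin and oxidises succinate, was at 410 (lowest), 513 (median) and 720 (highest) CPM in control and 558, 596 and 667 CPM in DC371739 libraries. No DC371739 library lay below the control median. The control range was set by its deeper libraries, at 626 and 720 CPM; the 5 shallower controls were at 410 to 523 CPM and the 6 shallower DC371739 libraries at 558 to 667 CPM, which did not overlap. Over all 14 the log2 fold change was 0.22 (SE 0.12, adjusted p = 0.299) and did not pass. With the class term it was 0.30 (SE 0.09, adjusted p = 0.0496) and over the shallower libraries 0.42 (SE 0.08, adjusted p = 0.00484), and it passed whichever of the 11 libraries was left out (adjusted p at most 0.0204). The Sdha gene (ENSMAUG00000020809) spans 34970191 to 34997466 on the plus strand of KB708129.1.

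Sdhb, the iron-sulfur subunit that takes electrons from Sdha, had the opposite sign. It was at 252, 267 and 317 CPM in control and 209.9, 245 and 298 CPM in DC371739 libraries, and was not called (log2 fold change -0.19 over all 14, SE 0.10, adjusted p = 0.286; -0.17 over the shallower libraries, adjusted p = 0.178). Sdhd, which anchors the complex in the membrane, was at 152, 177 and 266 CPM in control and 153, 177 and 221 CPM with DC371739, with a log2 fold change of -0.10 over all 14 and 0.03 over the shallower libraries (adjusted p = 0.69 and 0.804). The deeper control libraries, at 266 and 231 CPM, were the highest of the 14 for Sdhd. The ratio of Sdha to Sdhb in FPKM, formed after the values were seen and not tested, was 0.428 to 0.771 in control, with a median of 0.666, and 0.658 to 1.01 in DC371739 libraries, with a median of 0.801. Among the shallower libraries it was 0.428 to 0.681 in control and 0.787 to 1.01 with DC371739, and the groups did not overlap. The deeper DC371739 library had a ratio of 0.658, below both deeper controls at 0.666 and 0.771.

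In complex III, the cytochrome bc1 complex, Uqcrq and Uqcr11 fell in the later fits, and none of the 7 subunits was called over all 14. Both are small subunits without a redox centre. Uqcrq was at 289, 346 and 378 CPM (lowest, median, highest) in DC371739 libraries, all 7 below the control median of 398 CPM. Its log2 fold change was -0.29 over all 14 (SE 0.11, adjusted p = 0.133) and -0.38 over the shallower libraries (adjusted p = 0.0185), where it did not pass without control replicate 2 (0.0526). Uqcr11 was at 50.8, 72.5 and 88.5 CPM in control and 50.0, 54.5 and 68.9 CPM with DC371739. The deeper control libraries, at 56.6 and 50.8 CPM, were the lowest controls. It had a log2 fold change of -0.30 over all 14 (adjusted p = 0.206), -0.35 with the class term (adjusted p = 0.0254) and -0.40 over the shallower libraries (SE 0.10, adjusted p = 0.0136).

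Uqcrb, another small subunit, was at 169, 198 and 227 CPM in control and 141, 178 and 193 CPM with DC371739 (log2 fold change -0.25, SE 0.09, adjusted p = 0.138). The core proteins did not share that direction in every fit. Uqcrc1 had 0.06 (SE 0.09) over all 14 and 0.04 over the shallower libraries, and Uqcrc2 -0.06 (SE 0.12) and 0.04, with adjusted p of 0.713 to 0.834. The subunits that carry the redox centres, cytochrome c1 (Cyc1) and the Rieske protein (Uqcrfs1), had log2 fold changes of -0.16 and -0.11 over all 14 (adjusted p = 0.423 and 0.503).

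All 8 nuclear subunits of complex IV, cytochrome c oxidase, had a negative log2 fold change in each of the 3 fits, with medians of -0.23, -0.21 and -0.26. The range was narrow apart from Cox8a: over all 14 the other 7 lay between -0.27 and -0.19. None was called over all 14 or with the class term, and Cox7c and Cox8a fell over the shallower libraries. Cox8a, one of the smallest subunits, was at 84.2, 113 and 141 CPM (lowest, median, highest) in control and 50.5, 79.6 and 118 CPM in DC371739 libraries, with a log2 fold change of -0.42 over all 14 (SE 0.17, adjusted p = 0.171) and -0.57 over the shallower libraries (SE 0.18, adjusted p = 0.0443). Both deeper controls, at 84.2 and 85.8 CPM, were the lowest controls. The call did not hold without any 1 of 7 libraries, control replicates 1, 2, 3 and 5 and DC371739 replicates 2, 3 and 6 (adjusted p up to 0.109).

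Cox7c was at 155, 195 and 244 CPM in control and 143, 161 and 191 CPM with DC371739, with -0.27 over all 14 (adjusted p = 0.22) and -0.36 over the shallower libraries (adjusted p = 0.0356). Its call was lost, with up to 0.0956, without control replicates 2, 3 or 5 or DC371739 replicates 2, 3, 5 or 6. Cox5a had the smallest SD among controls in the complex, at 98.1 to 111 CPM. DC371739 replicates 2, 3, 5, 6 and 7 were at 83.0, 88.7, 68.6, 73.7 and 96.4 CPM, below every control, and replicates 1 and 4 were at 101 and 98.7 CPM (log2 fold change -0.24, SE 0.09, adjusted p = 0.164). For the other subunits with tissue isoforms, Cox4i1, Cox6b1, Cox7a2, Cox7b and Ndufa4, log2 fold changes over all 14 were -0.25, -0.21, -0.20, -0.19 and -0.22, with adjusted p of 0.186 to 0.314. Their mean levels were 323, 273, 179.9, 274 and 500.2 FPKM.

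**Figure D3:**
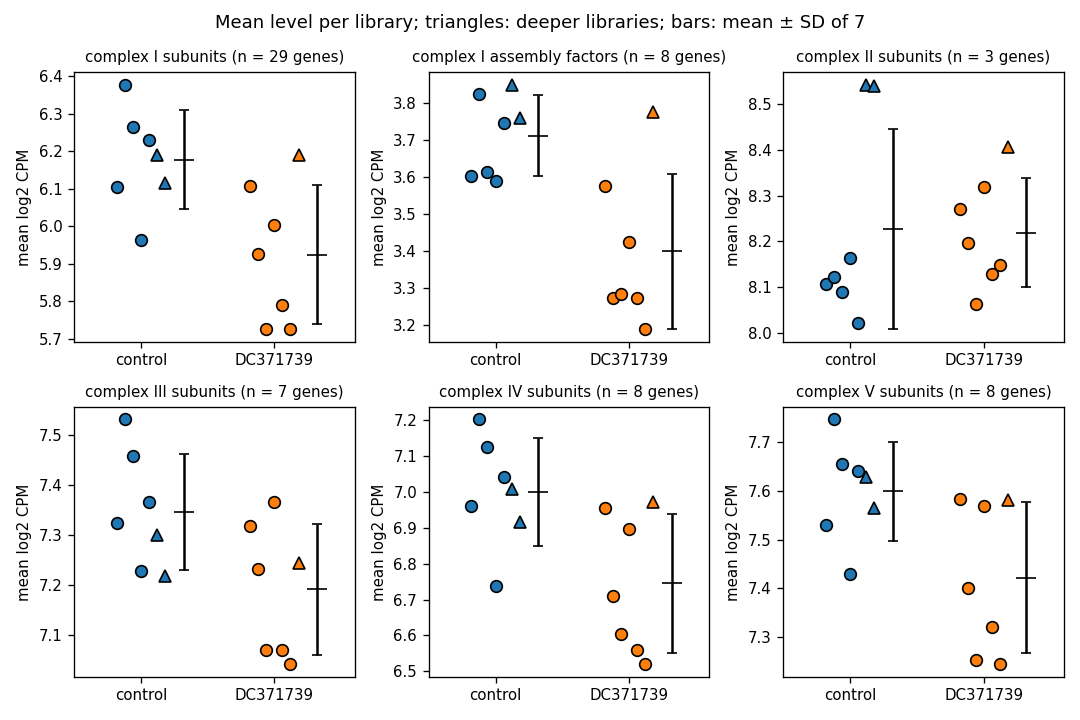
Each point is the mean log2 CPM over the genes of 1 complex in 1 library, control on the left and DC371739 on the right of each panel (7 libraries each); triangles are deeper libraries and bars give mean ± SD. Groups overlap in every panel, and only in that of complex II do the deeper control libraries stand above all the others.

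In complex V, ATP synthase, 7 of 8 subunits were negative in each fit. None was called over all 14, Atp5e fell with the class term, and Atp5d, Atp5e and Atp5j fell over the shallower libraries. Atp5e, the epsilon subunit of the central stalk, was at 109.9, 142 and 183 CPM (lowest, median, highest) in control and 98.0, 116 and 135 CPM in DC371739 libraries. Both deeper controls, at 118 and 109.9 CPM, were like all 7 DC371739 libraries under the control median. Its log2 fold change was -0.27 over all 14 (SE 0.11, adjusted p = 0.187), -0.30 with the class term (adjusted p = 0.0469) and -0.37 over the shallower libraries (adjusted p = 0.0195; 0.0571 without control replicate 2). Atp5d, the delta subunit beside it, was at 59.0 and 54.0 CPM in the deeper controls and 56.8 CPM in the deeper DC371739 library. The shallower controls were at 82.9 to 120.2 CPM and the shallower DC371739 libraries at 66.7 to 92.5 CPM (-0.26 over all 14, adjusted p = 0.416; -0.40 and 0.024 in the shallower set). Its call was lost without control replicates 2, 3 or 5 or DC371739 replicates 3, 5 or 6 (up to 0.07).

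Atp5j, coupling factor 6 of the peripheral stalk, was at 123, 141 and 157 CPM in control and 96.7, 112 and 141 CPM with DC371739 (-0.24 over all 14, adjusted p = 0.144; -0.29 over the shallower libraries, adjusted p = 0.0266). That call was lost, with up to 0.0747, without control replicates 2, 3 or 5 or DC371739 replicates 3 or 6. Atp5j2, a membrane subunit, had -0.25 over all 14 (adjusted p = 0.198). Of the alpha and beta subunits of the catalytic head, only alpha, Atp5f1a, was among the members. Atp5f1a was at 439, 469.9 and 655 CPM in control and 453, 495 and 613 CPM with DC371739, a log2 fold change of 0.02 (SE 0.11, adjusted p = 0.93). Its sign turned without control replicates 2 or 5 or DC371739 replicates 4 or 7 (down to -0.025). Atp5c1, the gamma subunit, was at 256 ± 48.7 and 236 ± 50.8 CPM (SD, n = 7 each).

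**Figure D4:**
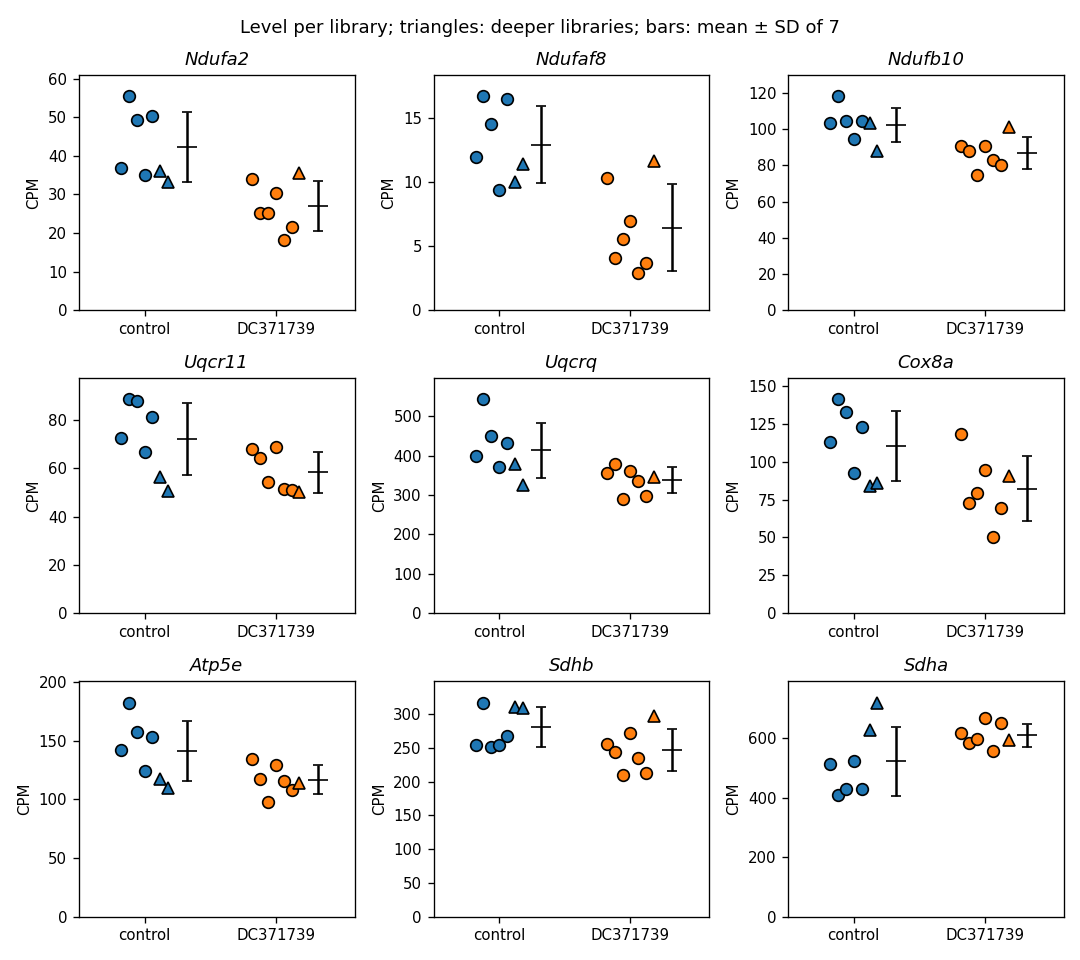
CPM of 9 members in each library, control left and DC371739 right in each panel, with axes from 0; triangles are deeper libraries and bars give mean ± SD of 7. For Uqcr11, Cox8a and Atp5e the deeper control libraries are the lowest or near-lowest controls, while for Sdha they are the highest.

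The members that fell were short genes. The summed exon length of the 63 was 323 to 3408 bases with a median of 702, against a median of 1996 over all genes tested. Over the shallower libraries 10 of 13 members shorter than 500 bases fell, 12 of 33 from 500 to 1000 bases, and 1 of 15 from 1000 to 2000 bases. The median log2 fold change of the 3 classes was -0.38, -0.28 and -0.05. Sdha, the member that rose, was the second longest at 2892 bases. Across the 63 genes, Spearman's rho between log2 fold change and exon length was 0.74 over the shallower libraries and 0.71 over all 14; it is a description across genes of the same libraries, which are not independent replicates.

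For all genes tested, rho was 0.16 over the shallower libraries and 0.14 over all 14, with 12249 and 12166 genes. Over the shallower libraries the median was -0.05 for genes shorter than 500 bases, -0.10 from 500 to 1000, -0.03 from 1000 to 2000, 0.03 from 2000 to 4000 and 0.08 from 4000 bases on. The share of genes that fell was 15.7%, 17.8%, 11.5%, 8.16% and 5.33% in the same order. The part of transcript length in the results of the members was not tested.

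**Figure D5:**
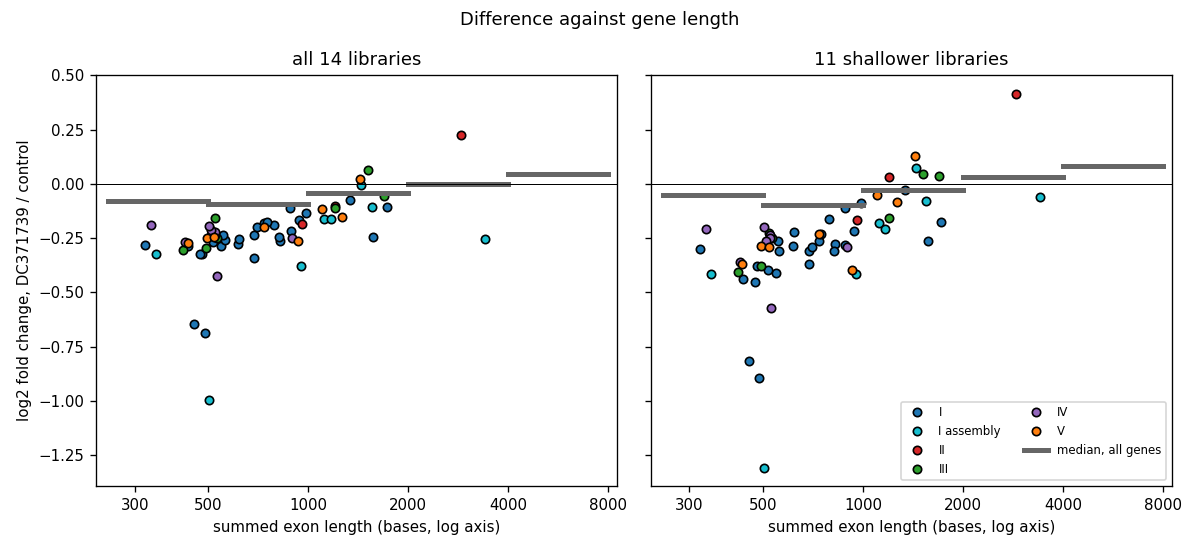
Log2 fold change of 62 of the genes (points, coloured by complex) against summed exon length in bases on a log axis, over all 14 libraries (left) and the 11 shallower ones (right); grey bars are medians of all genes tested in 5 length classes, the first and last of which are open-ended. Points rise from left to right in both panels, and those under 1000 bases lie below the grey bar of their class, except Ndufb5 on the right.

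Other genes of the pathway were taken from lists written beside the member rule. None of their 91 tested genes was called over all 14 libraries, against 1.85% of all genes. DESeq2 called 6 of the 91, against 6.33% of all genes. The class term called 10 and the shallower set 22, in either direction, against 12.3% and 21.5% of all genes. With both directions counted, the lists as a whole were thus called about as often as all genes. By direction they were not like all genes: more of the called list genes fell than rose in both of the later fits. Of all genes, 6.7% fell and 5.62% rose with the class term, and 10.5% fell and 11% rose in the shallower set. Of 6 further assembly factors of complex I, all had a negative log2 fold change over all 14; Foxred1 fell with the class term (-0.24, adjusted p = 0.0222), and Foxred1, Timmdc1 and Dmac2 fell over the shallower libraries. Of 19 assembly factors of complex IV, 15 were negative over all 14, 4 fell with the class term, and 8 fell and 1 rose over the shallower libraries. Coa3 was at 36.8 ± 4.03 CPM in control and 28.9 ± 3.17 CPM with DC371739 (SD, 7 libraries each), with a log2 fold change of -0.35 over all 14 (SE 0.09, adjusted p = 0.0565) and -0.41 over the shallower libraries (adjusted p = 0.00911). Coa6, a copper-delivery factor, was at 24.4 ± 2.71 and 18.5 ± 2.84 CPM (-0.40, SE 0.11, adjusted p = 0.0567; -0.40 and 0.0183 over the shallower libraries). None of 7 assembly factors of complexes II and III was called in any of the 3 fits (Lyrm7 -0.26 and Sdhaf4 -0.18 over all 14, adjusted p = 0.154 and 0.287). Of 3 for complex V, Atpaf2 fell over the shallower libraries (-0.26, adjusted p = 0.0284) and Tmem242 did not (-0.02).

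Genes upstream of the chain did not move in 1 direction. Of 10 regulators of mitochondrial biogenesis, 5 were positive and 5 negative over all 14. Ppargc1a, the coactivator PGC-1alpha, was at 2.08, 3.66 and 13.68 CPM (lowest, median, highest) in control and 3.84, 9.97 and 13.0 CPM in DC371739 libraries. Its log2 fold change was 0.52 over all 14 (SE 0.39, adjusted p = 0.475) and 1.21 over the shallower libraries (SE 0.32, adjusted p = 0.0206). Nrip1, a corepressor of this program, fell over the shallower libraries (-0.34, adjusted p = 0.0358). Ppargc1b, Nrf1 and Esrra had log2 fold changes over all 14 of 0.49 (SE 0.27), 0.03 (SE 0.12) and -0.06 (SE 0.12), with adjusted p of 0.322, 0.922 and 0.828, and the sign of Nrf1 turned with the class term (-0.01). Of 15 genes that maintain or express the mitochondrial genome, Mterf3, Mterf4 and Slirp fell in the later fits. Slirp, which stabilises mitochondrial mRNA, was at 12.2 ± 1.25 CPM in control and 9.29 ± 1.22 CPM with DC371739 (-0.39 over all 14, adjusted p = 0.0573), and Mterf3 at 7.81 ± 0.743 and 5.76 ± 0.771 CPM (-0.44, adjusted p = 0.0512).

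Of 11 enzymes of the citric acid cycle, which feeds the chain with NADH and succinate, 4 were positive over all 14 and 8 over the shallower libraries, where 1 rose (Suclg2) and none fell. Ogdh was at 269.5 ± 35.7 and 293 ± 47.5 CPM and Suclg1 at 487 ± 98.0 and 446 ± 69.9 CPM (SD, n = 7 each). Of 13 genes of coenzyme Q synthesis, none fell in the 3 fits and 1, Coq5, rose over the shallower libraries; Coq10a and Coq7 had -0.38 and -0.22 over all 14 (adjusted p = 0.221 and 0.325). Of 7 other enzymes that pass electrons to coenzyme Q, Gpd2, the mitochondrial glycerol 3-phosphate dehydrogenase, rose and Prodh, proline dehydrogenase, fell in the later fits. Gpd2 was at 25.9, 30.7 and 58.7 CPM in control and 41.9, 43.7 and 52.9 CPM with DC371739 (0.37 over all 14, adjusted p = 0.201; 0.64 and 0.000429 over the shallower libraries).

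Markers of other liver cells were read in the same libraries. Of all genes tested, 1.24% rose over all 14 libraries, 5.62% with the class term and 11% in the shallower set. Of 16 macrophage markers, 3, 9 and 6 rose in the same order, and none was called lower. Over all 14, 4 of the 16 had a negative log2 fold change. The summed level of the 16 was 849.9 to 1275 CPM in control and 967 to 1488 CPM in DC371739 libraries. Of 12 stellate cell and fibroblast markers, 1, 2 and 3 rose in the same fits and none fell, with summed levels of 257 to 376 CPM and 333 to 533 CPM. In DC371739 replicates 2, 3 and 5, where most members were low, the latter stood at 509, 486 and 533 CPM. In replicate 6, where members were as low, it was 375 CPM, and in control replicate 4 it was 376 CPM. Lymphocyte (13.74 to 25.8 against 18.9 to 36.5 CPM), endothelial (205 to 317 against 258 to 355 CPM) and cholangiocyte markers (23.0 to 39.5 against 27.8 to 50.1 CPM) overlapped between groups. So did the summed levels of the macrophage markers and of the stellate cell and fibroblast markers. Of 11 endothelial markers 0, 2 and 4 rose in the 3 fits, and of 9 lymphocyte markers 0, 2 and 2, with none of either called lower. Among 6 cholangiocyte markers 1 fell over the shallower libraries. Of the 12 hepatocyte markers none was called over all 14 libraries; Hnf4a rose with the class term, and Hnf4a and Apob, named after their values were seen, rose in the shallower set. No marker matched in the table was at 0 in all libraries. Their part in the results of the members was not tested.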

How the data were processed

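The submitters' processing notes name HISAT2 2.2.1, featureCounts 2.0.0 and edgeR without a version; settings, genome build, annotation and strand mode were not stated. The deposited counts are whole numbers per Ensembl gene over its summed exons, for 22283 genes. For 10023 genes with a symbol the authors also deposited FPKM (scaled by gene length and library) together with the fold change on a log2 scale, the mean log2 CPM and both a raw and an adjusted p-value. Reads of near-identical genes cannot be told apart in these counts.

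Tests on the counts used edgeR 4.0.16 under R 4.3.3 (quasi-likelihood F-test, robust, TMM scaling, minimum count of 10) with group as the only term, besides the later fits. CPM values are on the TMM-scaled total. An SE is the fold change over the root of its F statistic. Alternatives were other scalings and filters, DESeq2 1.42.0, limma 3.58.1 on counts with sample weights or on log2(FPKM + 1) and log2(FPKM + 0.1), a block on the replicate number, and each library left out; leaving out each of the 11 shallower ones was added after the data were seen. No pair of 42 within groups agreed within sampling noise (chi-square per degree of freedom at least 10.6). The test was run on simulated counts, with changes larger than the median change of the members and no difference in expression between library classes. That run cannot tell how the test does for smaller changes or for libraries that stand apart.

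Members, lists and the library classes were chosen with earlier results of these data known. Named by rule were, per complex, the 3 members of smallest p and the 2 of highest FPKM, those called with the class term, the 10 of smallest p called over the shallower libraries, the complex IV isoforms, the assembly factor of smallest p, and from each pathway list the 2 genes of smallest p, with Ppargc1a, Ppargc1b, Nrf1 and Esrra. Ndufb2, Ndufb5, Ndufs4, Ndufs6, Ndufs7, Ndufaf1, Ndufaf6, Uqcrc1, Uqcrc2, Cyc1, Uqcrfs1, Atp5c1, Atp5d, Dmac2, Mterf4, Suclg2 and Coq5 were named after their values were seen. 1 member is counted in the fits and totals but not reported here on its own or plotted.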

Additional observations from a re-analysis of the deposited data

Results flagged for a closer look

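In 114 groups of 7 libraries (the genes named by rule and the summed level of sets of members, in each treatment), 5 held 1 library far from the others by Dixon's criterion; chance alone gives about 1 in 20. Ndufaf2 was at 11.9 CPM in DC371739 replicate 4, against at most 10.2 CPM in the other 6. Ndufb4 was at 50.5 CPM in control replicate 4, against at least 58.8 CPM in the other controls. Sdhaf4 was at 36.6 CPM in control replicate 2, with the next control at 29.5 CPM. Nrip1 was at 43.0 CPM in the deeper DC371739 replicate 7, with the next DC371739 library at 25.4 CPM. Coq10a was at 14.6 CPM in DC371739 replicate 4, with the next at 10.2 CPM.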

How the results depend on the processing

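The median log2 fold change of the members and of each complex moved by less than the spread between libraries in every alternative run, and that of complex II turned from -0.10 to 0.03 over the shallower libraries. The counts of calls moved. All genes called over 14 libraries numbered 225 of 12166. DESeq2 gave 850 of 13430, limma with sample weights 2739, the class term 1499, the shallower libraries 2635, and leaving out 1 library 25 to 1069. The filter of 1 CPM in 7 libraries gave 260 of 11538 genes. Limma on log2(FPKM + 1) gave 242 of 9077 genes and on log2(FPKM + 0.1) 228 of 10023. The 1 or 2 members called in these last 3 fits are not set apart from those shares. Members called, 0 over 14 libraries, numbered 1 with a filter of 1 CPM in 7 libraries, 3 with DESeq2, 39 with limma with sample weights, 2 with limma on either FPKM scale, 10 with the term for class, 24 in the shallower set, and 0 to 10 without 1 library. Other pathway genes called, also 0, numbered 1, 6, 23, 4 (FPKM + 1), 2 (FPKM + 0.1), 10, 22 and 0 to 8 in the same order. Over the shallower libraries, leaving out 1 library gave 1624 to 2913 genes and 7 to 39 members. The cause of these moves was not tested. The block on the replicate number left 8 genes and 0 members; the numbers did not pair the libraries, since deviations of same-numbered libraries correlated above 0.1 in 2 of 7 pairs and 1 of 14 libraries correlated best with its own number. Among genes named by rule, the sign of the log2 fold change turned for Sdhd over the shallower libraries (0.029) and for Nrf1 with limma with sample weights (-0.039), the class term (-0.013) and the shallower libraries (-0.040). Among members named after their values were seen, Uqcrc2 went from -0.06 over all 14 to 0.02 and 0.04 in the later fits, and Ndufaf1 from -0.0077 to 0.067 and 0.071. Without 1 library, Atp5f1a lay between -0.025 and 0.096 and Nrf1 between -0.023 and 0.083. The lowest count of a member was 27.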
